A study of Mus musculus with 6 samples.

Results

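The 5 hairpins of the miR-200 family (Mir200a, Mir200b, Mir200c, Mir141 and Mir429), with Mir203 and Mir205, are miRNAs of epithelial cells. They were taken by name from the 1155 miRNA rows of a count table, and all 7 were found. The table holds small RNA reads from cultured mouse embryonic fibroblasts (MEFs), connective tissue cells grown from embryos, in 3 libraries of genotype Fbxw7 KO and 3 of genotype WT. FBXW7 is the part of a ubiquitin ligase that binds substrates, among them Myc, cyclin E and Notch, and the series compared miRNA levels between MEFs with and without an Fbxw7 knockout. Both genotypes were kept in DMEM with serum. The sources used here do not give strain, embryonic age or the Fbxw7 allele, and the Fbxw7 transcript was not analysed here. Separate embryos or cultures are not stated for the replicates, and the p-values then measure only the spread between libraries, which may be technical.

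The miR-200 family keeps epithelial cells epithelial by repressing Zeb1 and Zeb2, transcription factors that switch off E-cadherin, and these factors in turn repress the genes of the family, so that epithelial cells hold much of it and mesenchymal cells little. Zeb1 also represses Mir203 in human cancer cells. Mir203 is abundant in the differentiating layers of the epidermis, where it represses the p63 stem cell factor. Mir205 is a miRNA of basal and myoepithelial cells that also represses Zeb1 and Zeb2. Fibroblasts are mesenchymal cells and stand at the opposite end of this axis.

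The family falls into groups by its seed, the bases 2 to 8 of the mature miRNA that pair with targets. The mature arms for which the family is known are shown first, since their seeds are used below to group the hairpins. They are RefSeq sequences on GRCm38.p6, written 5′ to 3′ with the seed in capitals, and all 7 members matched an entry.
miR-200b-3p: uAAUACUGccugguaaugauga
miR-200c-3p: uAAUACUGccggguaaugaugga
miR-429-3p: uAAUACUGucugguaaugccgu
miR-200a-3p: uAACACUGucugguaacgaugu
miR-141-3p: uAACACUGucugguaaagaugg
miR-203-3p: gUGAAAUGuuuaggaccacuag
miR-205-5p: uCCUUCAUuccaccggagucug

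Mir200b, Mir200c and Mir429 thus share AAUACUG, while Mir200a and Mir141 share AACACUG. No other of the 1738 mature sequences in the RefSeq mouse table carries either seed, nor the seeds of miR-203-3p or miR-205-5p. Counted from the 5′ end over 22 bases, miR-200b-3p and miR-200c-3p differ at 2 positions (U11G and A22G), and miR-200a-3p and miR-141-3p also differ at 2 (C17A and U22G). The other pairs within the family differ at 4 or 5 positions. The counting settings in the file headers leave out reads with several alignments, and whether reads of these near-identical pairs were lost in that way was not tested.

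The family is encoded at 2 loci, and positions are given as in the count table, on mm10, and equal those of GENCODE M21 for all 7 members. Mir200b (chromosome 4, 156055681 to 156055750), Mir200a (156054896 to 156054985) and Mir429 (156053905 to 156053987) lie in this order on the minus strand. All 3 are within introns of Ttll10, and within the noncoding transcript Gm13648, where Mir429 lies in an exon and the others in an intron. Mir200c (chromosome 6, 124718322 to 124718390) and Mir141 (124717914 to 124717985) lie 337 bases apart on the minus strand, in an intron of the noncoding gene Gm15884, with Mir141 partly in an exon of Gm29008. Mir205 (chromosome 1, 193507463 to 193507530, minus strand) lies in an exon of the lincRNA gene 4631405K08Rik. Mir203 (chromosome 12, 112130880 to 112130955, plus strand) overlaps no annotated gene and lies 3321 bases from Aspg. No other row of the count table overlaps a member, and the rows nearest to Mir203 and Mir205 (Mir3073a and Mir3962) had 0 counts.

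Both arms of a hairpin were counted as 1 value. The Mir203 hairpin, the one with enough counts to test, is printed whole with its 2 mature arms in capitals.
Mir203: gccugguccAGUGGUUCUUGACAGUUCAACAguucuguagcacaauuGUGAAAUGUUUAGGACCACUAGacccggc

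The Fbxw7 KO libraries held 3140258, 2932439 and 3753353 counts, and the WT libraries 5019700, 4568352 and 3707576. The first principal component of log2 CPM (65.2% of the variance) separated the genotypes. On the second (17.5%) Fbxw7 KO replicate 3 scored −6.45, apart from 2.90 and 3.55 in Fbxw7 KO replicates 1 and 2. WT replicates 1 to 3 scored 0.69, 1.39 and −2.07, so replicate 3 was the lowest in both genotypes. The Mir203 results are given with and without Fbxw7 KO replicate 3. CPM, a row's count per library total brought to a common size, uses totals scaled with edgeR's TMM factors unless plain totals are named. The edgeR quasi-likelihood test called 72 of 283 tested rows changed at an adjusted p under 0.05 (25.4%), 43 higher (15.2%) and 29 lower (10.2%) in Fbxw7 KO. Leaving out Fbxw7 KO replicate 2 gave 34 calls, and leaving out WT replicate 1 or 2 gave 42 or 35 calls.

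The libraries were rich in miRNAs of fibroblasts, most of it from Mir21a and Mir143. Of the 11 fibroblast miRNAs listed, 9 have rows in the table, and these held 51.8% to 55.1% of counts in Fbxw7 KO and 48.5% to 49.2% in WT, with Mir22, whose row overlaps that of its host transcript Mir22hg, at 0. Mir21a, the most abundant, averaged 271112 ± 5288.5 CPM in Fbxw7 KO and 244907 ± 24358.5 CPM in WT (SD, n = 3 each). Mir143 averaged 221707 CPM in Fbxw7 KO and 225774 CPM in WT, and with Mir21a made up most of that share. Not all listed rows were abundant, and Mir199a-1 had 4 to 10 counts per library. The 7 epithelial members together held 0.00168% to 0.00618% of counts in Fbxw7 KO and 0.00211% to 0.00262% in WT. In bulk RNA of this kind, a change in the number of cells that make a miRNA and a change in the amount per cell cannot be told apart.

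Mir203 stood far above the other members. Per hairpin length, on the deposited FPKM scale, Mir203 averaged 522 ± 314 in Fbxw7 KO and 252 ± 0.806 in WT (SD, n = 3 each). Its lowest library had 178 FPKM, while the highest value of any other member in any library was 29.6 FPKM. By mean FPKM, 179 of the 1155 rows were above Mir203.

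The other members followed in the order Mir200b, Mir200c, Mir200a, Mir141, Mir205 and Mir429, and each overlapped its neighbours in this order. Mir200b averaged 17.4 ± 4.80 FPKM in Fbxw7 KO and 16.2 ± 12.2 FPKM in WT. Mir200c averaged 16.3 ± 12.3 FPKM in Fbxw7 KO and 14.4 ± 6.77 FPKM in WT. These levels rest on at most 8 reads per library. The last in the order, Mir429, was at 0 FPKM in every Fbxw7 KO library and averaged 3.69 ± 1.59 FPKM in WT.

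None of the 5 miR-200 hairpins had enough counts to be tested, and neither had Mir205. The filter that edgeR applies to low counts kept 1 of the 7 members, Mir203. The 5 hairpins together had 6, 15 and 10 counts in Fbxw7 KO replicates 1 to 3, against 12, 15 and 21 in WT replicates 1 to 3. The ranges of the genotypes overlap. Against the plain library totals, the pooled counts came to 3.15 CPM in Fbxw7 KO (31 counts) and 3.61 CPM in WT (48 counts). This is a ratio of 0.874, with a 95% interval of 0.538 to 1.40 that covers counting error only. A change of the family within that interval was not detectable at this depth.

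**Figure D1:**
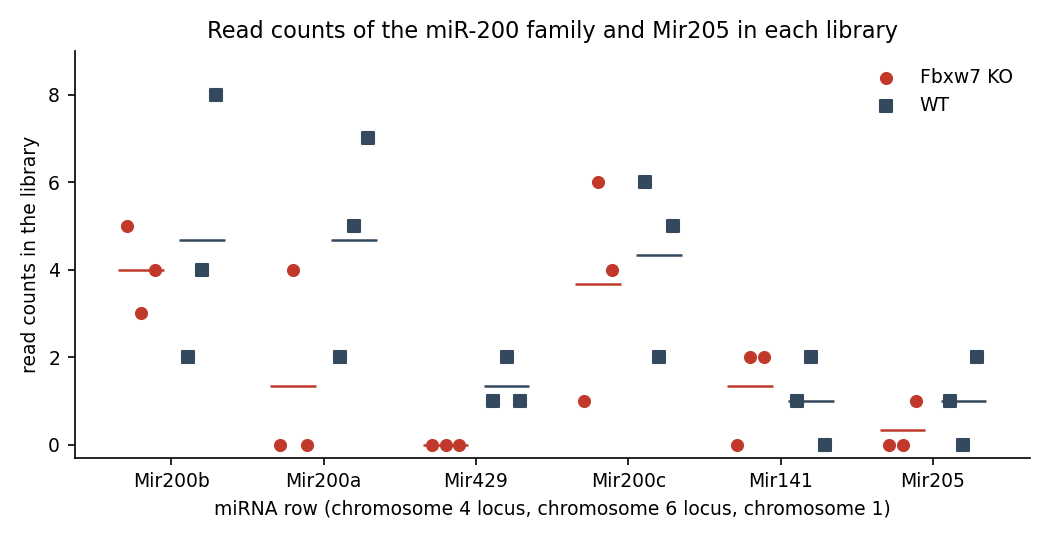
Read counts of each miR-200 hairpin and of Mir205 in each library (y axis, counts not scaled for depth), with Fbxw7 KO as circles to the left of WT as squares and lines at the group means. No library had more than 8 counts of any of these rows, and for Mir429 all 3 Fbxw7 KO libraries are at 0.

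Mir200b, the first of the chromosome 4 hairpins in the direction of transcription, had 5, 3 and 4 counts in Fbxw7 KO, against 2, 4 and 8 in WT. Pooled, its ratio of shares was 1.16 (95% counting interval 0.490 to 2.70). Fbxw7 KO lay within the WT range, and the ratio was 1.95 without WT replicate 3 and 0.842 without WT replicate 1. Mir200a, 696 bases away, had 0, 4 and 0 counts in Fbxw7 KO and 2, 5 and 7 in WT. Its pooled ratio was 0.387 (95% counting interval 0.0927 to 1.23), and Fbxw7 KO replicate 2 overlapped the WT libraries. All 4 of its Fbxw7 KO counts were in that library, and the ratio was 0.626 without Fbxw7 KO replicate 3.

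Mir429, the third hairpin of that transcript, had 0 counts in each Fbxw7 KO library and 1, 2 and 1 counts in WT. It was the only member whose genotypes did not overlap, with Fbxw7 KO below WT. The genotypes also did not overlap in 23.4% of the 671 rows with counts, 10.4% with Fbxw7 KO lower, and in 9.02% of the 388 of these that failed the filter, 4.9% with Fbxw7 KO lower. A count of 0 over the pooled Fbxw7 KO libraries allows up to 0.305 CPM of the plain total (3 counts of 9826050), against 0.301 CPM measured in WT in the same way, so a difference was not detectable at this depth. Together the chromosome 4 hairpins had 16 counts in Fbxw7 KO and 32 in WT, a ratio of shares of 0.677 (95% counting interval 0.347 to 1.27).

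At the chromosome 6 locus, Mir200c had 1, 6 and 4 counts in Fbxw7 KO and 6, 2 and 5 in WT. Its pooled ratio was 1.14 (95% counting interval 0.464 to 2.77), with 0.742 without Fbxw7 KO replicate 2 and 0.888 without WT replicate 2. Mir141 beside it had 0, 2 and 2 counts in Fbxw7 KO and 1, 2 and 0 in WT, with a ratio of 1.80 (95% counting interval 0.305 to 12.3), or 3.55 without WT replicate 2. The genotypes overlap for both. Together they had 15 counts in Fbxw7 KO and 16 in WT, a ratio of 1.27 (95% counting interval 0.584 to 2.74). Leaving out Fbxw7 KO replicate 2, which held 8 of the 15, turned the direction, with a ratio of 0.844. The intervals of the 2 loci overlap, and the difference between the loci was not tested.

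Pooled by seed, the hairpins with AAUACUG had 6, 9 and 8 counts in Fbxw7 KO and 9, 8 and 14 in WT, a ratio of shares of 1.00 (95% counting interval 0.559 to 1.78). Those with AACACUG had 0, 6 and 2 counts in Fbxw7 KO and 3, 7 and 7 in WT, a ratio of 0.637 (95% counting interval 0.238 to 1.56), or 0.227 without Fbxw7 KO replicate 2. The AAUACUG hairpins made up 74.2% of the family's counts in Fbxw7 KO and 64.6% in WT. These counts hold both arms of each hairpin, and the arms not shown carry other seeds, so they may include reads without the seed named.

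Mir205 had 0, 0 and 1 counts in Fbxw7 KO and 1, 0 and 2 in WT, with a ratio of 0.451 (95% counting interval 0.00859 to 5.62). It was seen in 3 of the 6 libraries, and the ratio was 0.976 without WT replicate 3 and 0.296 without WT replicate 2. Tested with no filter on low counts, none of the 6 sparse members passed. In that edgeR fit over 671 rows Mir200a had a log2 fold change of −1.34 (SE 0.883, adjusted p = 0.429), and Mir200b one of 0.15 (SE 0.674, adjusted p = 0.925).

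**Figure D2:**
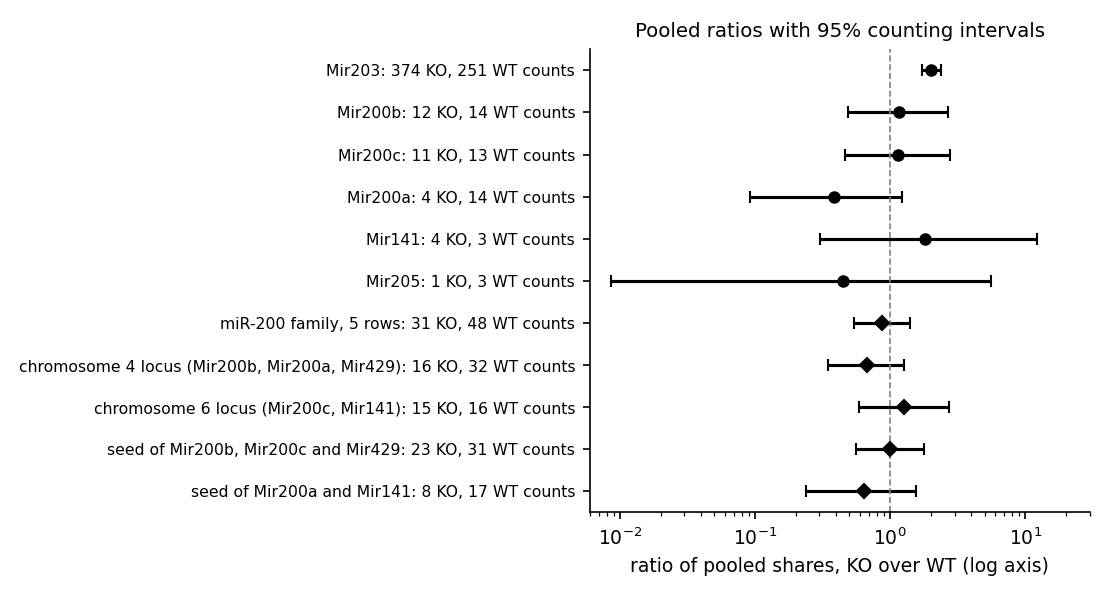
Ratio of the pooled share of counts, Fbxw7 KO over WT (x axis, log scale), with exact 95% intervals that cover counting error only, for single members (circles) and for sums by family, locus and seed (diamonds). Every miR-200 and Mir205 interval includes 1, while the interval of Mir203 runs from 1.71 to 2.38 and leaves out the spread between libraries. Mir429, with 0 counts in Fbxw7 KO, is not drawn.

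Mir203 was the member with a measurable level, and it was split among the Fbxw7 KO libraries. It had 188, 134 and 52 counts in Fbxw7 KO replicates 1 to 3, against 93, 84 and 74 in WT replicates 1 to 3. As CPM this was 59.3, 45.5 and 13.3 in Fbxw7 KO and 18.7, 19.97 and 19.2 in WT. Fbxw7 KO replicates 1 and 2 were above every WT library, and Fbxw7 KO replicate 3 was below every WT library, so the genotypes overlap.

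The means were 39.4 ± 23.6 CPM in Fbxw7 KO and 19.3 ± 0.655 CPM in WT (SD, n = 3 each). The log2 fold change was 1.02 (SE 0.442), and Mir203 did not pass the edgeR test (adjusted p = 0.133, unadjusted p = 0.0468). An unadjusted p under 0.05 was found for 35.7% of tested rows. The exact 2-sided permutation test of the mean CPM gave p = 0.4, where 3 against 3 libraries cannot give less than 0.1. Over all tested rows the median log2 fold change was 0.05.

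Counting intervals show how far single libraries stood apart, with no allowance for other spread between libraries, which over all tested rows exceeded counting error for every pair of one genotype (chi-square over its degrees of freedom 111.5 to 694). The 95% counting interval of Fbxw7 KO replicate 3 ran from 9.95 to 17.5 CPM, below those of Fbxw7 KO replicate 2 (38.1 to 53.9 CPM) and replicate 1 (51.1 to 68.4 CPM). It overlapped the interval of each WT library, whose lower ends lay between 15.1 and 15.9 CPM. The 2 high libraries averaged 2.72 times the WT mean, and Fbxw7 KO replicate 3 stood at 0.691 of it.

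**Figure D3:**
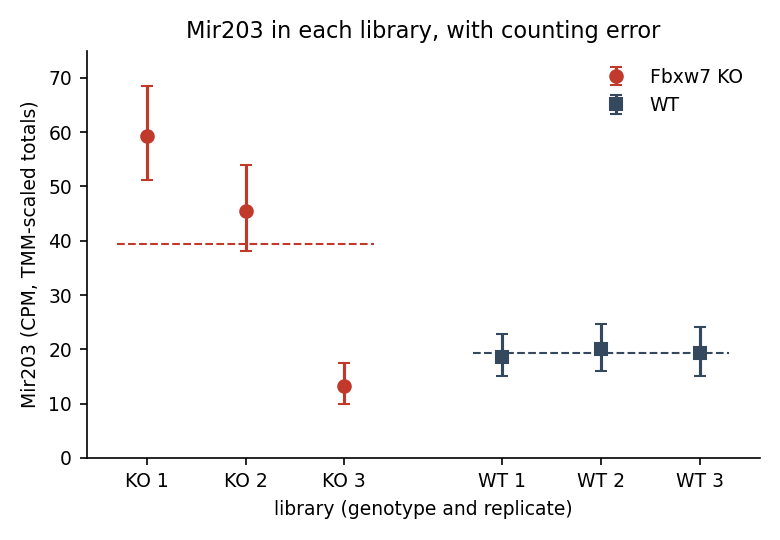
Mir203 in each library (y axis, CPM with TMM-scaled totals), Fbxw7 KO as circles and WT as squares, with bars for the 95% counting interval and dashed lines at the group means of 39.4 and 19.3 CPM. The WT libraries lie between 18.7 and 19.97 CPM, while the Fbxw7 KO libraries lie on both sides of them.

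The spread of Mir203 set it among the most variable rows in one genotype and the least variable in the other. Its SD of log2 CPM was 1.13 in Fbxw7 KO, where the median tested row had 0.23, and 5 of 283 tested rows (1.77%) had a larger SD. In WT its SD was 0.048, where the median tested row had 0.21, and 264 of the 283 (93.3%) had a larger SD. The WT values (18.7, 19.97 and 19.2 CPM) all lay within the counting interval of each WT library. These intervals ran from 15.1 to 22.9, 15.9 to 24.7 and 15.1 to 24.1 CPM. Counting error alone allows a wider spread, so the small SD does not show that Mir203 is unusually constant in WT. In 6 of the 283 tested rows (2.12%), Mir203 included, Fbxw7 KO replicates 1 and 2 were above all WT libraries and replicate 3 below them. That pattern was read from the Mir203 values themselves, and whether its share exceeds that of a random order was not tested.

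Whether Mir203 passed depended on that library. Without Fbxw7 KO replicate 3, the log2 fold change was 1.45 (SE 0.183, edgeR adjusted p = 0.000556), in a fit that called 27.2% of 287 rows, 16% as higher. With each other library left out in turn, the log2 fold change lay between 0.59 and 1.05 and adjusted p between 0.242 and 0.394. Fbxw7 KO replicate 3 also stood apart from the other Fbxw7 KO libraries over all rows, and the labels give no reason to leave it out.

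**Figure D4:**
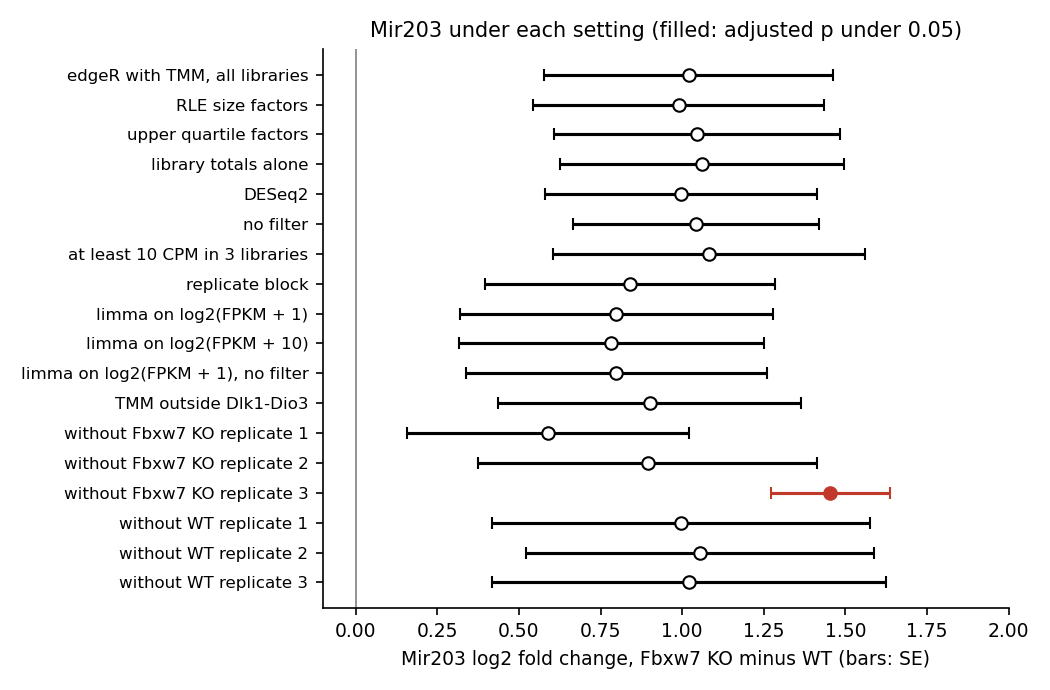
Log2 fold change of Mir203, Fbxw7 KO minus WT (x axis, bars for SE), in the edgeR fit of all libraries and under 17 alternatives. Every value is above 0, and 1 setting, the fit without Fbxw7 KO replicate 3, has an adjusted p under 0.05 (filled).

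The 5 tested rows whose log2 CPM over the 6 libraries was most like that of Mir203 were Mir6236 (Pearson r = 0.96), Mir496a (0.92), Mir187 (0.92), Mir677 (0.89) and Mir5121 (0.88). These correlations cover 6 libraries of both genotypes, which share their depth and scaling across rows, and they are given as a description. Mir6236 had 149.5, 155.6 and 24.8 CPM in Fbxw7 KO and 31.5, 27.1 and 23.9 CPM in WT. Like Mir203, it was high in Fbxw7 KO replicates 1 and 2 and near WT in replicate 3. Its log2 fold change was 1.99 (SE 0.584, edgeR adjusted p = 0.0414), a call that ended when any library but Fbxw7 KO replicate 3 was left out (adjusted p = 0.101 to 0.181). Without that library its log2 fold change was 2.47 (adjusted p = 1.97e-05). Mir496a, a miRNA of the Dlk1-Dio3 imprinted cluster, differed little between libraries, with 111.0, 111.4 and 92.5 CPM in Fbxw7 KO and 102.7, 98.6 and 94.1 CPM in WT. Mir5121 had 23.0, 24.8 and 12.04 CPM in Fbxw7 KO and 10.4, 11.4 and 8.58 CPM in WT. Its groups did not overlap, and its log2 fold change was 0.96 (SE 0.292, edgeR adjusted p = 0.0415), a call that also ended when any library but Fbxw7 KO replicate 3 was left out (adjusted p = 0.0864 to 0.154). Without that library its log2 fold change was 1.24 (adjusted p = 0.00238). Least like Mir203 were Mir125a (r = −0.94) and Mir23b (−0.93). Mir23b had 1944, 2167 and 2897 CPM in Fbxw7 KO and 2437, 2376 and 2745 CPM in WT, so that Fbxw7 KO replicate 3 was the highest library.

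**Figure D5:**
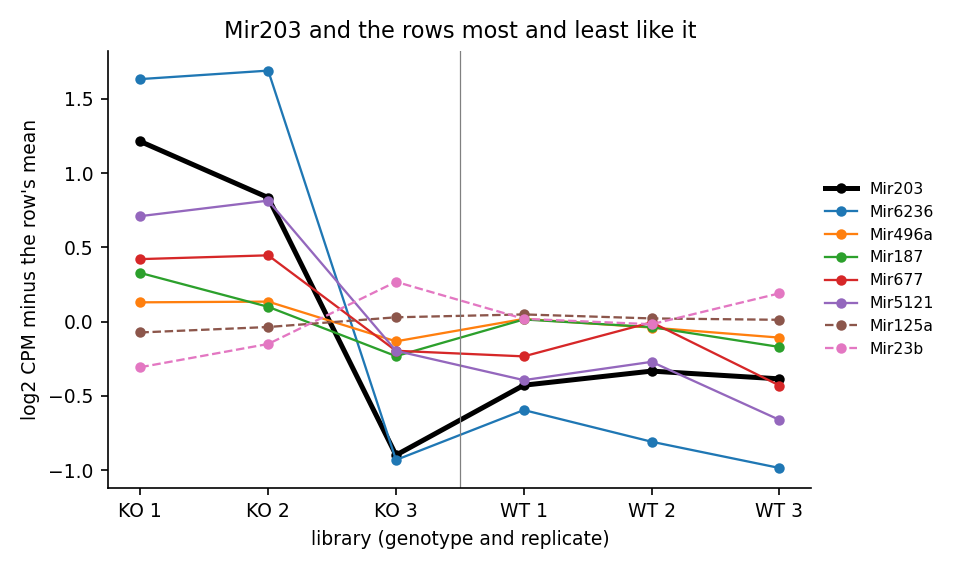
Log2 CPM minus the mean of each row (y axis) in the 6 libraries (x axis), for Mir203 in black, the 5 rows most like it (solid lines) and the 2 least like it (dashed lines). The lines join values of 1 row and imply no order of replicates. Mir6236 and Mir203 are both high in Fbxw7 KO replicates 1 and 2 and low in Fbxw7 KO replicate 3.

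Other miRNAs of epithelia did not move as one. Of 9 listed, 7 were tested, 2 rose, 3 fell and 2 did not pass, with a median log2 fold change of −0.01 against 0.05 over all tested rows, of which 15.2% were called higher and 10.2% lower. Mir31, a miRNA of keratinocytes that fibroblasts also make and that the fibroblast list also holds, rose (1.77, SE 0.194, edgeR adjusted p = 0.000666). It had 1397, 1442 and 1791 CPM in Fbxw7 KO and 442, 350 and 571 CPM in WT. Mir96, Mir183 and Mir182, sensory and epithelial miRNAs of 1 cluster, fell. Mir183 had 242.0, 225.6 and 147.0 CPM in Fbxw7 KO and 783.1, 864.3 and 429.4 CPM in WT (−1.76, SE 0.283, adjusted p = 0.00267), and the genotypes did not overlap. This was so for 43.8% of tested rows. Mir96 had a log2 fold change of −2.20 (SE 0.298, adjusted p = 0.00114) and Mir182 one of −1.76 (SE 0.400, adjusted p = 0.0169). The Mir182 call ended without Fbxw7 KO replicate 2 (adjusted p = 0.0512) or WT replicate 1 (adjusted p = 0.0631). The intestinal miRNA Mir194-2 rose (0.59, adjusted p = 0.0347), a call that ended in 4 of 6 fits without 1 library (adjusted p = 0.0908 to 0.145). The 2 that did not pass were Mir192 (−0.006, edgeR adjusted p = 0.978) and Mir215 (0.40, adjusted p = 0.391). Mir192 averaged 359 CPM in Fbxw7 KO and 360 CPM in WT. Mir375, a miRNA of endocrine and secretory epithelium, was too sparse to test, with 3, 4 and 2 counts in Fbxw7 KO and 2, 6 and 0 in WT.

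Of 14 listed mesenchymal miRNAs, 12 have rows, and 3 of them were at 0 (Mir155, Mir222 and Mir9-1). The rows of Mir155 and Mir222 overlap another row, so their 0 does not show absence. Of the 12, 6 were tested, 1 rose and 5 did not pass, with a median log2 fold change of 0.21 against 0.05 over all tested rows. With 15.2% of all tested rows called higher, 1 of 6 is near the background. The one that rose was Mir199b, which mesenchymal cells of the embryo express (0.65, SE 0.165, edgeR adjusted p = 0.0203), and that call ended without Fbxw7 KO replicate 2 (adjusted p = 0.0586) or WT replicate 2 (adjusted p = 0.0736). Mir21a, a growth-linked miRNA (0.15, adjusted p = 0.338), and Mir143, a miRNA of smooth muscle and fibroblasts (−0.03, adjusted p = 0.883, with a sign that other scalings turned) did not pass.

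Markers of other tissues were set beside Mir203. The other 6 epithelial members together had 6, 15 and 11 counts in Fbxw7 KO replicates 1 to 3 and 13, 15 and 23 in WT. Mir205 was at 0 in both libraries with the most Mir203. There, 0 counts allow up to 0.946 and 1.02 CPM, above every Mir205 value seen (at most 0.520 CPM, in WT replicate 3). The 4 pancreatic miRNAs (Mir216a, Mir216b, Mir217 and Mir375) summed to 86.4, 93.8 and 20.2 CPM in Fbxw7 KO and 1.61, 2.85 and 1.04 CPM in WT, with Mir216b at 0. They were thus highest in the same libraries as Mir203, and their part in the Mir203 values was not tested. Muscle miRNAs, which here meant Mir206, summed to 221, 212 and 390 CPM in Fbxw7 KO and 137, 165 and 218 CPM in WT, with 4 of 5 rows at 0. Neuronal miRNAs, here almost only Mir128-1, summed to 178, 162 and 130 CPM in Fbxw7 KO and 117, 161 and 157 CPM in WT. Of their 7 rows, 3 were at 0, and Mir124a-3 had at most 4 counts in a library. Blood cell miRNAs stayed at or under 3.06 CPM in Fbxw7 KO and 4.41 CPM in WT, with Mir142 at 0. Of the rows that overlap another row of the table, 60 of 72 (83.3%) were at 0, against 424 of 1083 (39.2%) of the rows that overlap none. The endothelial markers Mir126a and Mir126b, at 0, overlap each other on opposite strands. Mir142, Mir216b, Mir1a-2, Mir222, Mir155, Mir124a-1 and Mir124a-2 also overlap another row. A 0 in any of these rows does not show that the miRNA is absent. Mir1a-1, Mir133a-1, Mir133a-2 and Mir9-1 overlap none, and whether reads with several alignments were lost from them was not tested.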

How the data were processed

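Small RNA was sequenced from 3 Fbxw7 KO and 3 WT MEF libraries, made with Illumina TruSeq chemistry per the labels' protocols. The authors' read counts per miRNA gene name were made with featureCounts 1.6.4, with strand ignored, per the file headers. The submitters' processing notes name mm10, and deepTools, Cufflinks 2.2.1, SAMtools 1.5 and TopHat2 2.1.1. Adapter trimming is not given in the sources used here. The deposited FPKM values equal the counts divided by length and by TMM-scaled totals in all 1155 rows, within a relative difference of 8.50e-15.

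The main test was edgeR 4.0.16 under R 4.3.3 on the counts as deposited (TMM, filterByExpr with a minimum count of 10 and total of 15, robust glmQLFit, 2-sided), with Benjamini-Hochberg adjustment over 283 rows and a threshold of 0.05. SEs come from the F statistic. Log2 CPM used a prior count of 2. Pooled counts have exact 95% binomial intervals for ratios and exact Poisson intervals per library. The floor is 3 counts. Both kinds of interval cover counting error only. Reads carry no molecular identifiers, so copies of 1 molecule were not told apart and the intervals may be too narrow. Members that failed the filter got no test, except in an alternative. The fit was tested on simulated counts. All members are named. Besides these, the rule names the 5 rows most and 2 least correlated with Mir203, and from each list the 4 or fewer changed members of lowest p and the 2 most abundant. Mir192, Mir194-2, Mir215, Mir375 and the tissue markers lie outside it and were named after their values were seen. The members, lists and tests were chosen with earlier results of these data known. Alternatives were other scalings, DESeq2 1.42.0, other filters, limma 3.58.1 on log2(FPKM + 1) or log2(FPKM + 10), a replicate block and leaving out each library. The labels do not say whether replicate numbers pair the libraries, and the main fit did not pair them.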

Additional observations from a re-analysis of the deposited data

How the results depend on the processing

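The log2 fold change of Mir203 was positive under all 17 alternatives and past the threshold in 1. It ranged from 0.59 to 1.45 over the fits that left out 1 library. The other alternatives gave 0.78 to 1.08, with DESeq2 at adjusted p = 0.0605. The pooled ratio of the 5 miR-200 rows was 0.841 with TMM-scaled totals and 0.643 to 1.12 with 1 library left out. With a replicate block, Mir203 had a log2 fold change of 0.84 (edgeR adjusted p = 0.227) and 76 rows were called. The deviations of same-numbered libraries correlated at −0.06, 0.14 and 0.16, and those of differently numbered libraries at −0.18 to 0.15. Correlations this weak do not decide whether the numbers pair the libraries. The number of rows called was 34 to 78 with 1 library left out, against 72, and 48 with limma on FPKM with no filter. With TMM factors from rows outside the Dlk1-Dio3 region, chosen after seeing the data, 30 rows were higher and 34 lower, against 43 and 29, the median log2 fold change moved to −0.07 and Mir203 had 0.90 (adjusted p = 0.184). Changed members of the other epithelial list numbered 3 to 5 with 1 library left out, with 3 without Fbxw7 KO replicate 2, against 5. Those of the mesenchymal list numbered 0 to 2, against 1, and 2 with the replicate block. Mir182 lost its call with no filter (adjusted p = 0.163), without Fbxw7 KO replicate 2 (0.0512) and without WT replicate 1 (0.0631). Mir143 reversed to 0.0108 with upper quartile factors, 0.0253 with library totals alone and 0.0208 with at least 10 CPM in 3 libraries, and ranged from −0.0832 to 0.0367 with 1 library left out, above 0 without WT replicate 2. The cause was not tested. With the factors from outside Dlk1-Dio3, Mir194-2 (adjusted p = 0.0666), Mir6236 (0.0509) and Mir5121 (0.0771) lost their calls. All 3 also lost them with limma on FPKM with no filter (0.0563, 0.156 and 0.102). Mir6236 further lost its call with no filter (0.301), the replicate block (0.110) and limma on log2(FPKM + 1) (0.0960) or log2(FPKM + 10) (0.0946), and Mir5121 with limma on log2(FPKM + 1) (0.0509). The same 5 rows were most like Mir203 with prior counts of 0.5 and 5. Counts of 0 to 8 per library limit what can be said of the miR-200 family and Mir205.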
